A study of Mus musculus with 48 samples.

Results

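Transcripts of 7 genes for plasma proteins that are made chiefly by the liver (Alb, Ahsg, Mup1, Serpina1c, Apoa1, Apoa2 and Fgb) were followed in mouse brain. They were chosen because Ahsg and Mup1 had been among the transcripts with the lowest values, relative to wild type, in the cortex of Per3 5/5 mice. The array carried 1 probe for each of the 7 genes, out of 18883 genes named on it through a RefSeq accession. The genes lie on chromosomes 5 (Alb), 16 (Ahsg), 4 (Mup1), 12 (Serpina1c), 9 (Apoa1), 1 (Apoa2) and 3 (Fgb). RNA came from frontal cortex and hypothalamus of 24 adult mice that had all been sleep deprived for 12 h, with 1 array per tissue and mouse. In 8 mice both copies of the mouse exon 18 were replaced by human PER3 exon 18 with 5 repeats (Per3 5/5, the line labelled Boxhill), in 8 by the human exon with 4 repeats (Per3 4/4, labelled Coach), and 8 were wild type (WT). Each knock-in is 1 line on a C57BL/6 background, no undisturbed mice were measured, and the tissue was a dissected block, in which fewer cells of a type and less RNA per cell cannot be told apart.

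Hepatocytes secrete most of the protein in plasma, and their secretory genes are switched on together by liver-enriched transcription factors such as HNF1 and HNF4. Albumin (Alb) and fetuin-A (Ahsg) are abundant carrier proteins, major urinary protein 1 (Mup1) carries pheromones, Serpina1c is a mouse alpha-1-antitrypsin, a protease inhibitor, Apoa1 and Apoa2 are the main apolipoproteins of high-density lipoprotein, and Fgb is the beta chain of fibrinogen. In brain these transcripts are usually scarce, and the proteins mostly reach it from blood.

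Stretches of 4 promoters are shown because they hold a core motif of a liver-enriched factor, GTTAAT for HNF1 or GCAAT for C/EBP. The letters come from RefSeq (GRCm38.p6), run 5′ to 3′ on the strand of the gene and lie upstream of the transcription start, with the motif (in Fgb its reverse complement ATTAAC) in capitals. The windows lie at chr5:90460826-90460855 (plus strand) for Alb, at chr12:103904960-103904989 (minus strand) for Serpina1c, at chr3:83049875-83049904 (minus strand) for Fgb and at chr16:22891975-22892004 (plus strand) for Ahsg. The motif begins at -32, -27, -29 and -28 from the start in this order.
Alb: gaggtaagtatgGTTAATgatctacagtta
Serpina1c: gtggtgacattgGTTAATattcactagcaa
Fgb: aaaatgtcaaatATTAACtaaagggaggta
Ahsg: ccacgcctttacGCAATtccttcggcgggc
On either strand of the 250 bases before the start, the HNF1 core was found in 3 of 6 members with a promoter in the table, against 6.43% of all 32851 promoters. Mup1 had no entry. The C/EBP core GCAAT was found in 1 of the 6 members, Ahsg, against 23.1% of all promoters. These matches describe the letters and are not evidence of binding in these samples.

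A level is given here as the log2 of the processed signal of a probe over the 75th percentile of its array, so that 0 marks a probe as bright as that percentile. Levels of different probes are not comparable, because each probe binds with its own strength. The 75th percentile ranged from 307.2 to 1884 intensity units over the 48 arrays, and 27855 to 32966 probes of an array were well above background. The dissection was checked with marker genes. In WT mice all 11 hypothalamic markers tested were higher in hypothalamus, and all 8 cortical markers were lower there (limma, adjusted p under 0.05). The 4 arrays of slide 5, which held both tissues of Per3 4/4 replicates 6 and 7, stood apart as the dimmest of the set, and results that rest on them are given with and without them.

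Most members were dim and varied widely from mouse to mouse (see the plot of member levels by tissue and genotype). Mup1, Ahsg and Apoa2 were well above background on 24, 23 and 24 of 24 cortex arrays. Alb was well above background on 19 of the cortex arrays, Serpina1c on 18, Fgb on 15 and Apoa1 on 8. In hypothalamus the counts were 24 for Ahsg, Serpina1c and Apoa2, 23 for Mup1, 21 for Alb and Fgb, and 15 for Apoa1. Over the hypothalamus arrays on which a probe was well above background, the level ran from -5.95 to 0.15 for Alb, from -5.81 to 1.28 for Mup1 and from -6.03 to -2.10 for Fgb. On the lowest arrays these 3 probes were not well above background. Ahsg spanned 6.35 log2 units in hypothalamus, Serpina1c 2.83 and Apoa2 1.76, a 3.39-fold range, each well above background on all 24 arrays.

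**Figure D1:**
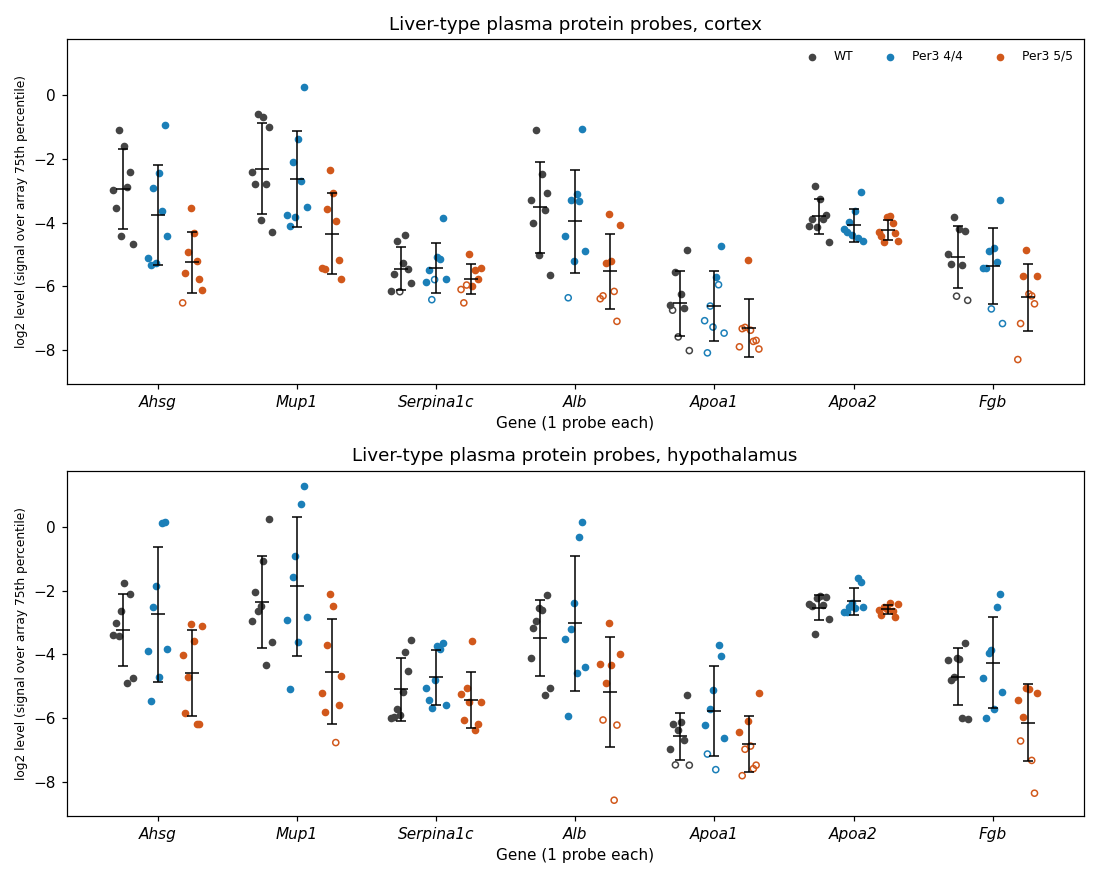
Log2 level of each member probe (signal over the 75th percentile of the array) on every array of cortex (top) and hypothalamus (bottom), by genotype (n = 8 mice each). Open circles are arrays on which the probe was not well above background, and bars are mean ± SD. Alb runs from -8.58, on an array where it was not well above background, to 0.15 in hypothalamus, whereas Apoa2 stays between -3.36 and -1.60.

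The members were picked from the comparison of Per3 5/5 with WT in cortex, so these values are a description without a test. The Ahsg level had its lowest, median and highest value at -6.52, -5.39 and -3.54 in Per3 5/5 cortex, at -5.33, -4.03 and -0.93 in Per3 4/4 cortex and at -4.68, -2.92 and -1.10 in WT cortex. Of the Per3 5/5 arrays, 6 of 8 lay below every WT array. The Mup1 level was -5.76, -4.57 and -2.36 in Per3 5/5, -4.09, -3.10 and 0.25 in Per3 4/4 and -4.28, -2.60 and -0.58 in WT cortex, and 4 of 8 Per3 5/5 arrays lay below every WT array. The Alb level was -7.10, -5.72 and -3.72 in Per3 5/5, -6.36, -3.87 and -1.06 in Per3 4/4 and -5.63, -3.44 and -1.08 in WT cortex. All 3 genotypes overlapped for each of these genes. The log2 difference between Per3 5/5 and WT was -2.04 for Mup1, -2.01 for Alb, -1.27 for Fgb, -0.42 for Apoa2 and -0.34 for Serpina1c, and for Ahsg it came to -2.30. The median over the 6 members that passed the filter on dim probes was -1.64, beside 0.06 over all probes tested, of which 12.4% were called in this comparison. Of the 6, Alb, Fgb and Serpina1c were well above background on 4, 3 and 5 of 8 Per3 5/5 cortex arrays. These 3 passed the filter only through the other genotypes. Apoa1 was too dim in cortex to be tested.

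Scan day differed between the genotypes. The first comprised 4 mice of each knock-in and no WT mouse. On the second, 5 WT mice were scanned with 3 of Per3 4/4, and the third comprised 4 mice of Per3 5/5, 3 of WT and 1 of Per3 4/4. The median Alb level in cortex was -5.24 on day 1, -3.19 on day 2 and -5.06 on day 3. With scan day as a block, the median log2 difference of the members between Per3 5/5 and WT cortex was -0.80. Within day 3 alone it was -1.19. With the normexp background correction, which compresses dim probes, it was -0.3, and Serpina1c and Apoa2 were at 0.20 and 0.06.

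In hypothalamus, which was not used to choose the members but came from the same mice, the averages of all 7 members were again lower in Per3 5/5 than in WT mice, but none passed the test. With normexp Serpina1c, Apoa1 and Apoa2 turned, to 0.08, 0.21 and 0.04, Mup1, Alb, Ahsg and Fgb were at -1.005, -0.53, -0.50 and -0.19, the median was -0.19 in place of -1.34, and 0 members had an unadjusted p under 0.05. The Mup1 level had its lowest, median and highest value at -6.77, -4.94 and -2.09 in Per3 5/5, at -5.10, -2.20 and 1.28 in Per3 4/4 and at -4.32, -2.56 and 0.24 in WT hypothalamus. For Mup1, 5 of 8 Per3 5/5 arrays lay below every WT array. The Fgb level was -8.36, -5.70 and -5.07 in Per3 5/5, -6.01, -4.36 and -2.10 in Per3 4/4 and -6.03, -4.44 and -3.63 in WT hypothalamus, and 3 of 8 Per3 5/5 arrays lay below every WT array. The Alb level was -8.58, -4.62 and -3.02 in Per3 5/5, -5.95, -3.37 and 0.15 in Per3 4/4 and -5.29, -3.07 and -2.13 in WT hypothalamus. The groups overlapped for every member. Mup1 had a log2 difference of -2.18 ± 0.84 (SE, n = 8 per group, limma adjusted p = 0.0683), a ratio of 0.220. Fgb had a log2 difference of -1.44 ± 0.57 (SE, n = 8 per group, limma adjusted p = 0.0735). Fgb and Alb were well above background on 5 of 8 Per3 5/5 hypothalamus arrays each, and Apoa1 on 3. These 3 members passed the filter on dim probes only through the other genotypes, so their tests rest partly on signal near background. Alb and Ahsg had log2 differences of -1.70 ± 0.81 and -1.34 ± 0.75 (SE, limma adjusted p = 0.138 and 0.202). The values for Serpina1c, Apoa1 and Apoa2 were -0.34, -0.24 and -0.06. Of the 7 members, 0 were called by limma and 3 had an unadjusted p under 0.05, whereas 18.8% of all probes tested were called. The methods' t-test, adjusted by Benjamini-Hochberg, also called 0, with 4 at an unadjusted p under 0.05.

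Without both mice of slide 5, which narrowed the spread shared by all groups, Mup1 (adjusted p = 0.0383) and Fgb (adjusted p = 0.0405) passed the test in limma, and the other 5 members did not. Fgb was well above background on only 5 of the 8 Per3 5/5 arrays. In that fit 2 of 40 other secreted plasma protein genes (described below) were called higher and 3 lower. The share of all probes called without slide 5 is not given here. With scan day as a block the log2 difference of Mup1 was -1.43 (adjusted p = 0.419) and that of Fgb was -0.88 (adjusted p = 0.439) in the same limma test, and Apoa1 and Apoa2 turned to 0.08 and 0.16. Within scan day 3, the only day that held both groups, the log2 differences were -2.31 for Mup1, -1.63 for Alb, -1.27 for Fgb and -0.86 for Ahsg.

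Both knock-in lines were compared in the same way. All 7 members were lower on average in Per3 5/5 hypothalamus, with log2 differences of -2.68 ± 0.84 for Mup1, -2.15 ± 0.81 for Alb, -1.88 ± 0.57 for Fgb, -1.84 ± 0.75 for Ahsg and -1.04 ± 0.49 for Apoa1 (SE, n = 8 per group). Of the 7, 0 were called by limma (the lowest adjusted p was 0.227), as were 0.0% of all probes tested. At an unadjusted p under 0.05, limma counted 5 of the 7 members and 4983 of 30735 probes, and the methods' t-test counted 3 members and called 0. The 5 include Alb, Fgb and Apoa1, which passed the filter on dim probes only through Per3 4/4 and WT arrays. Without both mice of slide 5 the median log2 difference of the 7 members was -0.88 in place of -1.84. With slide as a fixed block it was -0.81, with 0 members at an unadjusted p under 0.05, and with normexp it was -0.72. Within scan day 1, which held 4 mice of each line, the log2 difference of Mup1 was -1.58 and that of Alb -0.81. These mice shared 4 slides, 1 of each line per slide, and Mup1 was lower in the Per3 5/5 mouse on each, at -5.21 against -2.91, -5.81 against -5.10, -3.72 against -1.58 and -2.09 against -0.90. In cortex, where the Per3 5/5 arrays are those that chose the members, the 6 members that passed the filter had a median log2 difference of -1.24, given as a description without a test. Of all probes, limma called 0.0% in that comparison, and 4656 of 29715 had an unadjusted p under 0.05.

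Over all 24 arrays of a tissue, limma called no member between Per3 4/4 and WT mice, but single settings did. In hypothalamus the log2 differences ran from 0.20 for Apoa2 to 0.80 for Apoa1, and limma called 0 of 7 members against 15.1% of all probes tested, with 0 at an unadjusted p under 0.05. In cortex the differences ran from -0.80 for Ahsg to 0.02 for Serpina1c. There limma called 0 of 6 members, 0 of them at an unadjusted p under 0.05, against 22.5% of all probes tested. The WT arrays of the cortex are also those that chose the members. The direction in hypothalamus depended on the slides: without the mice of slide 5 the median log2 difference of the 7 members was -0.21, in place of 0.45, and with slide as a fixed block it was -0.53. Scan day 2 held 3 Per3 4/4 and 5 WT mice, and Per3 4/4 replicates 6 and 7 among them were those of slide 5. Without these, replicate 5 alone would stand for Per3 4/4, so this day has no fit without slide 5. Within that day the median was 1.5 in hypothalamus, where Serpina1c was called at 2.02 (limma adjusted p = 0.0243), and 0.58 in cortex, in place of -0.31. With normexp the cortex median turned to 0.29, and Serpina1c (0.56, limma adjusted p = 0.00257) and Fgb (0.55, adjusted p = 0.0154) were called. So were 20 of 38 other secreted plasma protein genes and 10 of 16 hepatocyte genes (both lists described below), all of them higher. The normexp offset was the same on every array, while the median 75th percentile was 752.7 in Per3 4/4 and 1299.8 in WT cortex. The share of all probes called in these single settings is not given here.

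**Figure D2:**
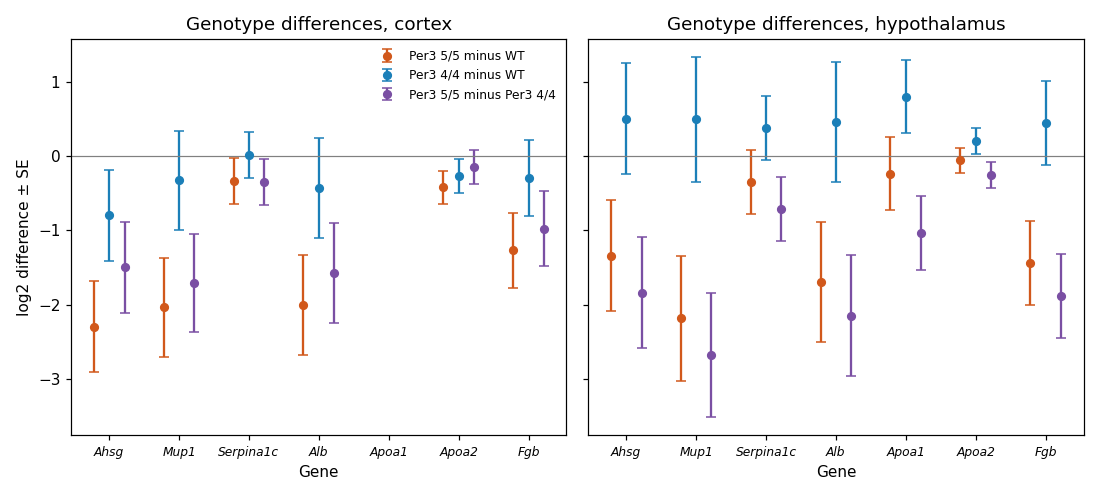
Log2 difference ± SE (limma, 24 arrays per tissue) of each member between genotypes, in cortex (left) and hypothalamus (right). The cortex difference of Per3 5/5 from WT chose the members. In hypothalamus Mup1 sits at -2.18 for Per3 5/5 minus WT and at 0.49 for Per3 4/4 minus WT, and Apoa2 lies near 0 in each comparison.

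Across arrays, 5 of the members (Alb, Ahsg, Mup1, Fgb and Apoa1) rose and fell together. These 5 were grouped after their values were seen, and the correlations are across the 24 arrays of a tissue, 2 mice to a slide. The permutations shuffled all 24 arrays as if independent. Their p-values therefore do not allow for slide or genotype, and they do not test the grouping. In hypothalamus Alb correlated with Ahsg at r = 0.956 and rho = 0.957, with Mup1 at r = 0.930 and rho = 0.903, and with Fgb at r = 0.928 and rho = 0.953 (permutation p = 1e-05 for each r and rho, the smallest that 100000 permutations can give, adjusted p = 1.83e-05 for r and 2.33e-05 for rho, over 42 pairs). The correlation between Alb and Apoa1 was r = 0.825 and rho = 0.827. Over the 10 pairs of these 5 genes in hypothalamus, r ran from 0.779 to 0.956. After the mean of each genotype was subtracted, the 10 values ran from 0.792 to 0.952. Within the 8 arrays of scan day 1, 2 and 3 their medians were 0.938, 0.960 and 0.862.

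How closely the ratios of these 5 genes held differed between pairs. The Ahsg level had an SD of 1.71 over the hypothalamus arrays and Alb one of 1.90, but the difference between their log2 levels had an SD of 0.57. For Mup1 and Fgb that SD was 0.988, and for Apoa1 it was 1.17 with Alb and 1.40 with Mup1, both above the SD of 1.096 of Apoa1 itself. In cortex, Ahsg and Mup1 had SDs of 1.57 and 1.62, and their difference one of 0.41. In cortex the 10 pairs had r between 0.796 and 0.967, and between 0.767 and 0.964 after subtraction of the genotype means, which are given without a test because the members were chosen there. The pairs with Apoa1 rest mostly on arrays where it was not well above background, as it was so on 8 of 24 cortex arrays. With normexp the 10 values in cortex ran from 0.388, for Ahsg and Apoa1, to 0.967.

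Apoa2 and Serpina1c followed Alb less closely. In hypothalamus r between Alb and Apoa2 was 0.621 (rho = 0.660, permutation p = 0.00171, adjusted p = 0.00199). Between Alb and Serpina1c it was 0.387 (rho = 0.269, permutation p = 0.0616, adjusted p = 0.0664). Within the 8 WT hypothalamus arrays the 6 pairs that include Serpina1c had r from -0.634 to -0.06. Leaving out the 2 arrays farthest from the median Alb level gave r = 0.579 between Alb and Apoa2. For Serpina1c and Ahsg the 2 arrays left out were those farthest from the median of that gene itself. There r with Alb was 0.529 and 0.929, so these 3 values rest on different sets of arrays. Without slide 5 the values were 0.329 for Apoa2, 0.150 for Serpina1c and 0.929 for Ahsg. The differences between these correlations were not tested.

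**Figure D3:**
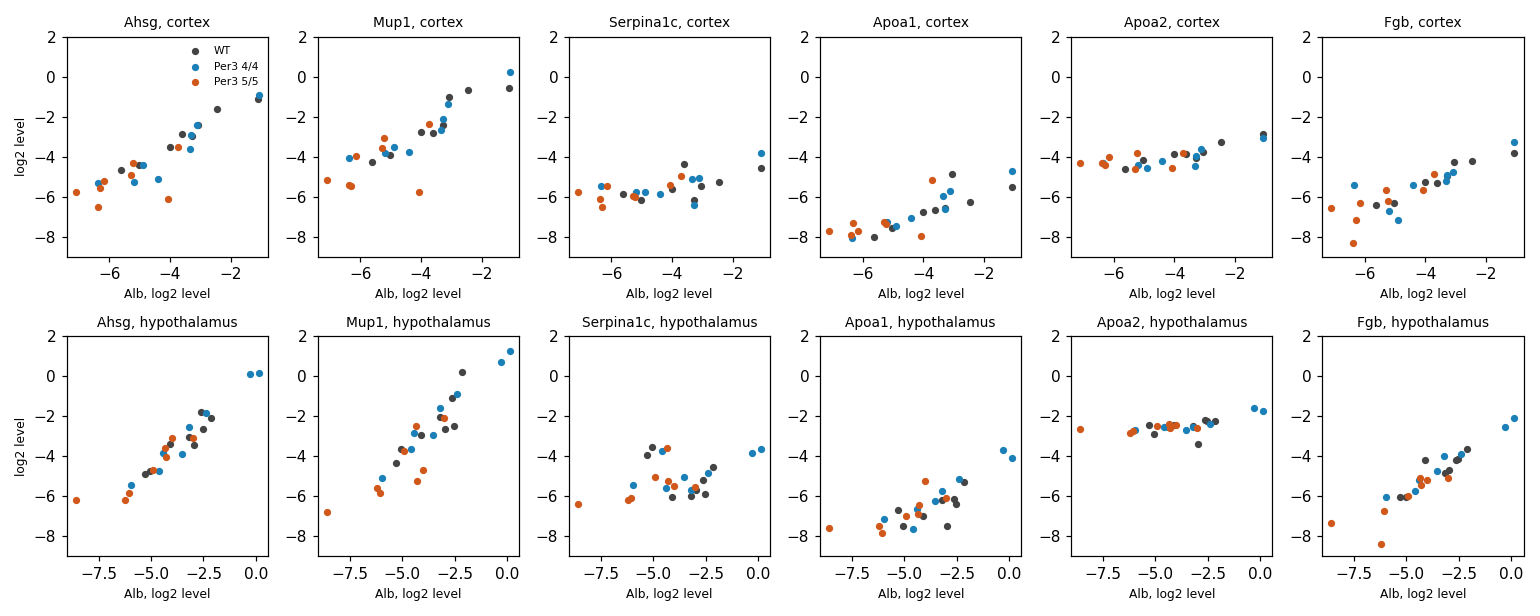
Log2 level of each other member against that of Alb on the 24 arrays of cortex (top) and hypothalamus (bottom), each point 1 mouse, by genotype. Ahsg and Mup1 track Alb over the whole range (hypothalamus r = 0.956 and 0.930), whereas Serpina1c scatters (r = 0.387) and Apoa2 hardly moves.

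Both tissues of a mouse were compared to ask whether a mouse with high levels in cortex also had them in hypothalamus. Over 24 mice, the cortex and hypothalamus levels correlated for Mup1 at r = 0.711 (rho = 0.710), for Alb at r = 0.693 (rho = 0.670), for Ahsg at r = 0.522 (rho = 0.510) and for Fgb at r = 0.518 (rho = 0.532). These are given without a test because they include the cortex difference that chose the members. Serpina1c had r = 0.424 and Apoa1 r = 0.427, which fell to 0.181 and 0.193 without the 2 mice farthest from the median cortex level. For Apoa2 the correlation was r = 0.013. After subtraction of genotype means r was 0.598 for Mup1 and 0.610 for Alb. Both arrays of a mouse were on the same slide, so mouse and slide cannot be fully told apart, but mice of 1 slide often differed. On slide 3 the Alb level in cortex was -1.08 in WT replicate 3 and -5.03 in WT replicate 4. In hypothalamus, the same mice had Alb levels of -2.95 and -2.53.

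**Figure D4:**
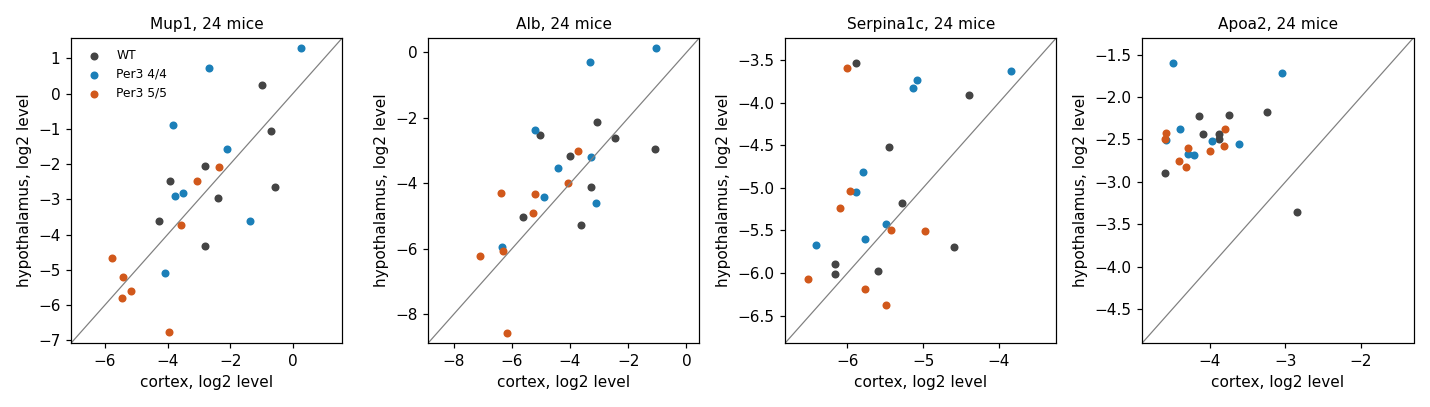
Log2 level in hypothalamus against that in cortex for Mup1, Alb, Serpina1c and Apoa2, each point 1 of 24 mice, with a line of equal levels. Mup1 (r = 0.711) and Alb (r = 0.693) rise along the line, whereas Apoa2 lies above it in 23 of 24 mice.

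Apoa2 was the member that differed between the tissues in WT mice. Its level was -3.81 ± 0.54 in WT cortex and -2.53 ± 0.41 in WT hypothalamus (mean ± SD, n = 8 each). The log2 difference within a mouse was 1.28 ± 0.20 in WT (SE, limma adjusted p = 5.31e-06), a ratio of 2.43, and 1.75 ± 0.20 in Per3 4/4 mice (adjusted p = 4.37e-08), a ratio of 3.37. Apoa2 was higher in hypothalamus in 23 of 24 mice, all but WT replicate 3. In WT mice limma called 1 of 7 members, against 59.5% of all probes tested. In Per3 4/4 mice it called 3 of 7, against 59.0% of all probes, with Fgb at a log2 difference of 1.11 ± 0.43 (adjusted p = 0.0296) and Serpina1c at 0.71 ± 0.30 (adjusted p = 0.0471) beside Apoa2. Without both mice of slide 5 limma called Apoa2 alone in Per3 4/4 mice. A change in the tissue difference between Per3 4/4 and WT mice was not called for any of the 7 members (limma, 0 called and 0 at an unadjusted p under 0.05, beside 0.0032% of all probes called). The lowest adjusted p over the members was 0.925.

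In hypothalamus the highest levels of all members but Serpina1c, which was highest in WT replicate 8, came from both mice of slide 5. Per3 4/4 replicates 6 and 7 had Alb levels of -0.30 and 0.15 in hypothalamus, and the next highest of the 24 arrays was WT replicate 7 at -2.13. The same mice had the highest Mup1 levels in hypothalamus, 0.73 and 1.28. In intensity units, not divided by the 75th percentile, the order differed. Mup1 was at 510.5 and 1217.5 in replicates 6 and 7, beside 1425.0 in WT replicate 7. Apoa2 was at 101.5 in replicate 6, the lowest of the hypothalamus arrays, and Apoa1 was highest in Per3 5/5 replicate 8 (31.8). Ahsg, Alb and Fgb remained highest in Per3 4/4 replicate 7, at 561.8, 557.2 and 117.6. In cortex the Alb levels of Per3 4/4 replicates 6 and 7 were -3.33 and -1.06. The brightness of the array moved with this: over the 24 hypothalamus arrays, the log2 75th percentile and the Alb level correlated at r = -0.47 (rho = -0.201, permutation p = 0.0244, adjusted p = 0.0854 over 14 relations). Without the 2 arrays of slide 5 this r was 0.056. Apoa1 had the r farthest from 0 of the 7 members, -0.651 (rho = -0.39, permutation adjusted p = 0.0133 for r and 0.849 for rho), which was -0.189 without slide 5. The other members lay between -0.56 for Apoa2 and -0.248 for Serpina1c. In cortex the 7 values lay between -0.301 and 0.039. Without slide 5 the 10 pairs of Alb, Ahsg, Mup1, Fgb and Apoa1 in hypothalamus still had r from 0.645 to 0.933.

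**Figure D5:**
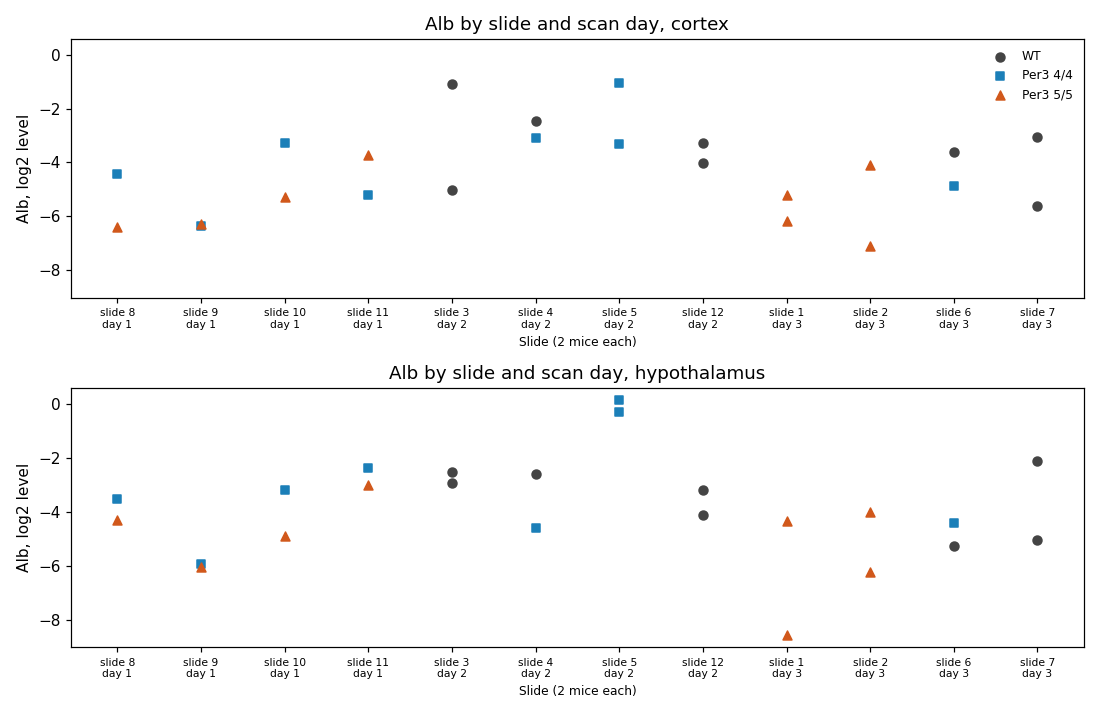
Log2 Alb level of both mice of each of 12 slides, ordered by scan day, in cortex (top) and hypothalamus (bottom), with the genotype as marker. Both mice of slide 5 lie highest in hypothalamus (-0.30 and 0.15), and mice of the same slide differ by 0.06 to 3.95 log2 units in cortex.

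Other liver transcripts were taken from a list of 55 secreted plasma proteins without the members, of which 48 were on the array. In hypothalamus 40 could be tested, and 12 of them correlated with Alb at r above 0.8 across the 24 arrays. Among these were Serpina1d, another alpha-1-antitrypsin (r = 0.939), Serpina3k (r = 0.925), the vitamin D binding protein Gc (r = 0.913), the fibrinogen gamma chain Fgg (r = 0.899) and Mup4 (r = 0.897). In cortex 9 of 38 did so. Others of the list did not follow Alb: the inter-alpha-trypsin inhibitor chain Itih3 had r = -0.101 and Apoc1 r = -0.073 in hypothalamus, where both were bright (median levels 5.38 and 2.91). By genotype, limma called 2 of the 40 higher and 2 lower in Per3 5/5 than in WT hypothalamus, where 18.8% of all probes were called. Transthyretin (Ttr), which the choroid plexus also makes, fell by 1.73 ± 0.36 on the log2 scale (SE, limma adjusted p = 0.00344), while antithrombin (Serpinc1) rose by 0.67 ± 0.21 and transferrin (Trf) by 0.47 ± 0.14. The Ttr probe was well above background on 14 of the 24 arrays, and with normexp its log2 difference was -0.19 (limma adjusted p = 0.617). In Per3 4/4 hypothalamus 3 rose against WT (Serpinc1, Trf and vitronectin, Vtn) and 0 fell, where 15.1% of all probes were called. The median log2 difference of the 40 was -0.27 for Per3 5/5 and 0.37 for Per3 4/4. None of the 40 was called in either comparison once scan day entered the fit, where the medians were -0.09 and 0.42. With slide as a random block 1 was higher and 1 lower in Per3 5/5, and 1 higher in Per3 4/4. With normexp these counts were the same, and the medians were -0.02 and 0.45.

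Genes of hepatocyte metabolism and its regulators were on the array for 23 of 25 listed, and 19 were tested in hypothalamus. The filter on dim probes was met by 19 of the 23 in WT hypothalamus, by 16 in Per3 4/4 and by 12 in Per3 5/5. Fabp1, the liver fatty acid binding protein, correlated with Alb at r = 0.903 across the hypothalamus arrays. The regulator Hnf4a had r = 0.392 and the bile acid receptor Nr1h4 r = 0.044. In Per3 5/5 against WT hypothalamus limma called 4 lower and 1 higher (Fah) of the 19, beside 18.8% of all probes. Fabp1 fell by 2.67 ± 0.79 on the log2 scale (SE, limma adjusted p = 0.0232), alcohol dehydrogenase 1 (Adh1) by 0.88 ± 0.27 and urate oxidase (Uox) by 0.69 ± 0.18. In a fit with scan day as a block none of the 19 was called in that comparison, and Fabp1 had a log2 difference of -2.02 (limma adjusted p = 0.221). With slide as a random block 1 was called lower and 1 higher. With normexp 0 were called lower and 1 higher, and Fabp1 was at -0.95 (limma adjusted p = 0.18). In Per3 4/4 against WT hypothalamus 1 of the 19 rose (Fah) and 0 fell.

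Markers of other tissues that a dissected block can carry were set beside Alb. The mean level of 11 choroid plexus genes correlated with Alb at r = 0.597 in cortex (rho = 0.583, given without a test) and at r = 0.444 in hypothalamus (permutation adjusted p = 0.0671 over 22 relations). For 12 genes of meninges and fibroblasts r was 0.655 in cortex (rho = 0.532) and 0.371 in hypothalamus (permutation adjusted p = 0.135). Without the 2 arrays farthest from the median Alb level these became 0.412 and 0.297 for choroid plexus, and 0.559 and 0.108 for meninges. For 5 blood genes r was 0.108 in cortex and 0.134 in hypothalamus, for 8 endothelial genes 0.451 and 0.274, and for 7 pituitary genes -0.109 and 0.013. Markers of the blocks themselves were set beside Alb too. For 8 cortical markers r was -0.601 in cortex (rho = -0.556, given without a test) and -0.134 in hypothalamus. For 11 hypothalamic markers it was -0.146 and 0.327, and for 6 neuronal genes -0.303 and 0.158. By genotype, 3 of 10 choroid plexus genes and 2 of 12 meningeal genes tested were called lower in Per3 5/5 than in WT hypothalamus, beside 18.8% of all probes called in either direction. The 3 choroid plexus genes include Ttr, which is also in the list of secreted plasma proteins. With scan day as a block none of either list was called, with slide as a random block 2 and 0 were called lower, and with normexp 0 and 1. The 8 neutrophil genes had r = 0.41 and 0.485 (permutation adjusted p = 0.0434 in hypothalamus). In Per3 5/5 against WT hypothalamus 6 of 7 tested fell (2 of 7 with scan day as a block). S100a8 was lower by 3.11 ± 0.64 on the log2 scale (SE, limma adjusted p = 0.00349). Of the 8, 7 met the filter on dim probes in WT hypothalamus, 3 in Per3 4/4 and 2 in Per3 5/5. Some were thus tested only through arrays on which they are high. With normexp S100a8 and S100a9 were at -1.29 and -2.37 (limma adjusted p = 0.0156 and 0.0115). Camp and Ltf were then at -0.57 and -0.53 (limma adjusted p = 0.163 and 0.156). In hypothalamus the mean level of the choroid plexus genes lay between -4.45 and -3.87 in Per3 5/5, between -4.15 and -3.62 in Per3 4/4 and between -3.98 and -3.10 in WT mice. That of the neutrophil genes lay between -8.17 and -4.19, -6.72 and -3.88, and -5.89 and -2.73 in the same order. The mean of the 23 hepatocyte genes lay between -5.77 and -5.04, -5.41 and -4.00, and -5.24 and -4.53. In each group 1 choroid plexus gene and 1 hepatocyte gene were well above background on no array. The part of these tissues in the member levels was not tested.

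The genes most like the members were ranked by their correlation with the mean of the members tested. In cortex the 5 highest of 15392 genes were Mup4 (r = 0.962), Ambp (r = 0.951), Ces1c (r = 0.949), Mug1 (r = 0.934) and Mup3 (r = 0.932). In hypothalamus the 5 highest of 15917 genes were Serpina1d (r = 0.974), Mup5 (r = 0.956), Mup4 (r = 0.955), Mug1 (r = 0.950) and Gc (r = 0.945), each over 24 arrays. Mup4 and Mug1 were among the 5 highest in both tissues. The Mup genes, and likewise the Serpina1 genes, are near-identical copies, so a probe for one may also bind transcripts of another, and their levels are uncertain for this reason.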

How the data were processed

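Levels were measured on 48 one-colour Agilent arrays. The deposited scanner output, made with Feature Extraction 10.7.1.1, gives intensity per spot, background subtracted, with no scaling between arrays, and deposited quality calls of 0 or 1. A second deposited table gives log2 values, shifted by the authors to the 75th percentile, and 99.9% of them lay within 0.05 of the scanner values centred on each probe's median. It left 45 member values blank in cortex and 0 in hypothalamus. With its values the median log2 difference of the members between Per3 5/5 and WT cortex was -0.91, in place of -1.64.

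Here, the processed signal was divided by the 75th percentile of its array and put on the log2 scale, outlier spots were left out and spots of a probe averaged. The filter on dim probes asked for a signal well above background on 6 or more arrays out of the 8 in any group. A probe with several spots counted as such where at least 50% of its spots did, a rule chosen over its stricter form after both had been run, because it gave the number of probes tested in an earlier analysis of these data. Genotypes were compared with limma 3.58.1 in R 4.3.3 (24 arrays per tissue, 3 group means), and tissues on the difference within each mouse, with Benjamini-Hochberg adjustment over all probes tested and calls at an adjusted p under 0.05. The script was tested on simulated data. Permutation tests of correlations were two-sided, with 100000 permutations, and shuffled all 24 arrays of a tissue without regard to slide or genotype. Both tissues of a mouse were paired by its number in the labels. Replicate numbers of different genotypes mark different mice and were not used as pairs, though same-numbered Per3 5/5 and Per3 4/4 replicates 1 to 4 shared a slide and scan day, as did replicate 5 of Per3 4/4 and WT. The p-values of limma rest on the spread between mice. That spread includes differences of slide and scan day, as the main fit had no term for either. The number of arrays limits the precision. Named genes were all members, the 5 genes most correlated with their mean, and up to 4 called genes per list with the largest difference. Other genes named for their correlation with Alb were chosen after their values were seen. The members and lists were chosen with earlier results of these data known. The scanner files hold median, not mean, pixel intensity, so the normexp alternative (offset 50) used medians. Probe names came from RefSeq accessions (27668 of 41174 probes). Of the genes called in the lists, 2 are not reported here by name.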

Additional observations from a re-analysis of the deposited data

Results flagged for a closer look

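Of 42 groups of 8 arrays, 1 had an array far from the rest. The Apoa1 level of Per3 5/5 replicate 4 in cortex was -5.18, the next highest array of that group was at -7.29, and the gap was 0.754 of the range of the group. Chance passes the critical value of Dixon's test for 8 samples, which lies below this gap, in about 1 of 20 groups. This array was the 1 of 8 on which Apoa1 was well above background.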

How the results depend on the processing

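Leaving out each mouse in turn gave 0 to 1 members called for Per3 5/5 against WT in hypothalamus (Mup1, without Per3 5/5 replicate 4 or 5) and 0 to 0 for the 4 other genotype comparisons tested and for the change in the tissue difference. It gave 1 to 6 for hypothalamus against cortex in Per3 4/4 mice, with 6 without replicate 5 and 1 without replicate 4 or 6, and 1 to 1 in WT mice. For the median of the description in cortex it gave -1.89 to -1.37. Without both mice of slide 5, an alternative chosen after seeing the data, 2 members were called for Per3 5/5 against WT in hypothalamus and 1 for the tissues in Per3 4/4, and the median r of all 21 pairs in hypothalamus was 0.595. With normexp, 2 members were called in Per3 4/4 against WT cortex, Serpina1c and Fgb (which turned to 0.55), 1 member was called between tissues in Per3 4/4, where Serpina1c turned to -0.03, and the cortex median was -0.3. Its offset compresses dim probes. In Per3 4/4 against WT cortex it also called 20 of 38 other secreted plasma protein genes higher. Within 1 scan day, Serpina1c was called in Per3 4/4 against WT hypothalamus, making 1, on a day whose Per3 4/4 mice included both of slide 5. Within scan day 3 the median r of pairs in cortex was 0.627, against 0.83. Without the replicate block (the pairing of both tissues of a mouse), 1 member was called between tissues in Per3 4/4. With a replicate block over same-numbered mice of different genotypes, 0 members were called in each of the 5 tested genotype comparisons. Of 48 same-numbered pairs, 21 had deviations correlated above 0.1, among them 6 of the 8 pairs of Per3 5/5 and Per3 4/4 arrays that shared a slide. The cause of these changes was not tested. With slide as a fixed block the members at an unadjusted p under 0.05 went from 5 to 0 for Per3 5/5 against Per3 4/4 in hypothalamus, with 0 called in both fits. With slide as a random block the hepatocyte genes lower in Per3 5/5 than WT hypothalamus went from 4 to 1 and the meningeal genes from 2 to 0. With normexp these 2 counts were 0 and 1. The other settings, the treatment of ties included, kept every count of members called within 1.5 times. Dim signal limits Apoa1, well above background on 8 cortex arrays, and Fgb, on 15.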
